A study of Mus musculus with 12 samples.

Results

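Introns held a large part of the peaks listed in AGO2 libraries of mouse tibialis anterior muscle. Their part of the peaks enriched over input was smaller. The listed intronic peaks, most of them little above input, are described here in WT and mir-486 KO muscle. A listed peak was taken as intronic when its midpoint lay within an annotated gene on the same strand and in no exon of any transcript on that strand. This rule used position alone and selected 279598 of 713343 listed peaks over 4 libraries. The libraries came from chimeric eCLIP, in which AGO2 is cross-linked to RNA by ultraviolet light and immunoprecipitated, so that the sequenced fragments come from RNA bound by AGO2, and some microRNAs are ligated to the RNA they pair with. Each of 2 library sets, here called set 1 and set 2, held a total immunoprecipitated library of WT muscle and another of mir-486 KO muscle, each with its own input library. All mice were 6 months old, and the methods state that they were male. In the labels the WT samples are of strain C57BL/6 and the mir-486 KO samples of strain FVB N/J, whereas the methods describe a CRISPR deletion of the mir-486 hairpin backcrossed to C57BL/6J, and this difference was not resolved, so genotype and labelled strain cannot be told apart. Whether the sets came from separate animals, and whether muscles were pooled, is stated in neither source. The design text counts more samples per genotype than the 2 total immunoprecipitated libraries that each genotype has, and speaks of duplicates, without saying which animals a library holds, so a spread over libraries may be technical. Absolute read depth is unknown, because the lists hold log2 folds and p-values and no read counts.

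Introns are removed in the nucleus, whereas AGO2 is best known for its work in the cytoplasm, where it holds a mature microRNA and lets the seed of that microRNA, its positions 2 to 8, pair with messenger RNA, most often in the 3′ UTR. AGO2 is also present in nuclei. miR-1, miR-206 and the miR-133 family are abundant muscle microRNAs, and miR-1 and miR-206 share a seed. miR-486 is encoded within Ank1 and is also enriched in muscle.

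The sequences below introduce the enriched intronic sites, because these fell into a narrow class and a wide class that differed in sequence. A peak was called enriched when its log2 fold over input and its −log10 p, both the authors' values, were at least 3. Touching or overlapping enriched peaks were merged into a site. Sites of at most 40 nt were called narrow and all others wide. The first lines give mature microRNAs from RefSeq, with the seed in capitals.
miR-133b-3p: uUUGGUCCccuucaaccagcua
miR-206-3p: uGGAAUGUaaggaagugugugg
miR-29a-3p: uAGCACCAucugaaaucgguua
miR-125b-5p: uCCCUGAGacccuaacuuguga
miR-26a-5p: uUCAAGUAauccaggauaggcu

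The next lines give narrow intronic sites that were enriched in all 4 libraries, read from GRCm38 on the strand of the peak, with T for U. Capitals mark the longest exact run shared with the microRNA whose mature sequence aligned best, in the sense direction. The sites are shown because they share letters with microRNAs themselves and not with the complements that a microRNA pairs with. The Eif2b3 site is shown as the most enriched one, and its alignment score of 13 was below the limit of 14 used for resemblance.
Eif2b3, chr4:117041901-117041925, plus strand, nearest to miR-133b-3p: gattttccccccTCAACCAGCTgtc
Tspan8, chr10:115822758-115822783, plus strand, nearest to miR-133b-3p: agcttaGGTCCCCTTCAccagctgtc
Rbms3, chr9:117375684-117375708, minus strand, nearest to miR-133b-3p: tatgGGTCCCCTTCAAtcaggagct
Prkaca, chr8:83974611-83974636, plus strand, nearest to miR-133b-3p: ccccccCCCCTTCAACCAGCagagct
Dclk1, chr3:55464932-55464957, plus strand, nearest to miR-29a-3p: ttTAGCACCATCTGAAAacatttatt
Grm5, chr7:87979696-87979723, plus strand, nearest to miR-125b-5p: cttTCCCTGAGACCCTAACatatgaaaa
Specc1, chr11:62173963-62173985, plus strand, nearest to miR-26a-5p: ttcaagtATCCAGGATgtgcttg

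The last lines give 30 nt out of wide intronic sites that were enriched in both WT libraries, with the word complementary to the miR-1/miR-206 seed, ACATTCC, in capitals. They were picked for holding this word, which was more frequent in wide intronic sites than in wide exonic sites but absent from many of them.
Mtmr12, chr15:12250127-12250156, plus strand: cccccagtaaaACATTCCttcatgtgtttc
Pard3, chr8:127257659-127257688, plus strand: tgacccaacacACATTCCatgctcacccaa
Dmd, chrX:83181617-83181646, plus strand: agattacttatACATTCCatattttgcttc
Pde4dip, chr3:97745583-97745612, minus strand: ccactctctaaACATTCCtactgtttggtg
Rora, chr9:68931049-68931078, plus strand: gcacttttaaaACATTCCatgaacccggag

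The WT library of set 1 stood apart from the other 3 in its share of intronic peaks. It listed 19757 intronic peaks of 92451, or 21.4% (95% Wilson interval 21.1% to 21.6%, counting error only). The mir-486 KO library of set 1 listed 47347 of 119859 (39.5%), the WT library of set 2 listed 102099 of 244814 (41.7%) and the mir-486 KO library of set 2 listed 110395 of 256219 (43.1%). The share was thus higher in mir-486 KO than in WT in both sets, by 18.1 percentage points in set 1 and by 1.38 points in set 2. With 2 libraries against 2 the smallest two-sided exact p is 0.333, so this difference was not tested. The labels were checked at the targeted locus, where the WT libraries listed 2 peaks (set 1) and 4 peaks (set 2) overlapping Mir486 and both mir-486 KO libraries listed 0. Introns of its host gene Ank1, which encodes an ankyrin, held 6 listed peaks in WT and 10 in mir-486 KO in set 1, and 12 and 1 in set 2, with 0 enriched peaks in any library.

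Intronic peaks were enriched over input less often than 3′ UTR peaks in all 4 libraries. Of intronic peaks, 1.37% passed both thresholds in WT of set 1, 0.551% in mir-486 KO of set 1, 0.903% in WT of set 2 and 0.629% in mir-486 KO of set 2. Over all listed peaks the shares were 3.57%, 0.848%, 1.42% and 1.23%, in the same order. The intronic share was lower than that of 3′ UTR peaks by 2.79 ± 1.40 points (mean ± SD, n = 4 libraries, lower in 4 of 4, two-sided exact sign-flip permutation test, p = 0.125, the smallest that 4 libraries allow). Against peaks in coding sequence (CDS) the difference was −0.49 ± 0.91 points, with intronic peaks lower in 3 of 4 libraries (exact p = 0.375). The mir-486 KO library of set 1 was the exception, with 0.264% of CDS peaks and 1.64% of 3′ UTR peaks enriched.

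**Figure D1:**
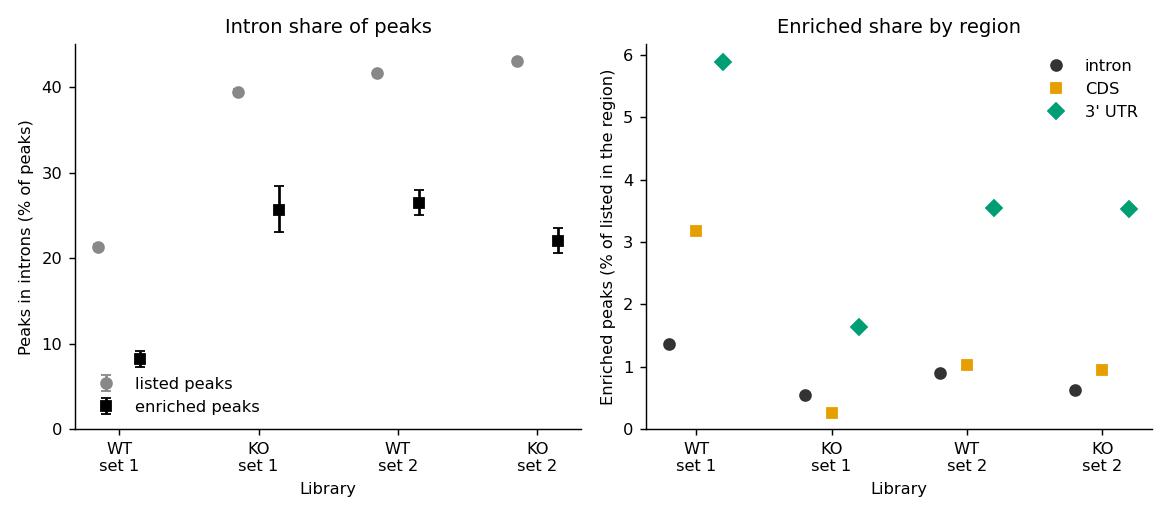
Left, share of peaks in introns (percent, vertical axis) among listed peaks (grey circles) and enriched peaks (black squares) of each library, with 95% Wilson intervals. Right, enriched peaks as a percentage of the listed peaks of introns (circles), CDS (squares) and 3′ UTRs (diamonds). Squares lie below circles in all 4 libraries on the left, and 3′ UTR peaks lie highest in all 4 on the right.

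The introns held 271 of 3297 enriched peaks in WT of set 1 (8.22%), 261 of 1016 in mir-486 KO of set 1 (25.7%), 922 of 3479 in WT of set 2 (26.5%) and 694 of 3148 in mir-486 KO of set 2 (22.05%). In each library this was below the intron share of listed peaks, by a mean of 15.8 ± 3.60 points (SD, n = 4 libraries, exact p = 0.125). The median log2 fold over input of listed intronic peaks was 0.46, 0.38, 0.80 and 0.77. Most listed intronic peaks were therefore little above input. This was not particular to introns. In the same order the medians were 0.68, 0.12, 0.21 and 0.18 for CDS peaks and 0.87, 0.61, 0.60 and 0.56 for 3′ UTR peaks. The intronic median was below that of CDS only in WT of set 1, and above that of 3′ UTRs in set 2 only. The host gene was protein-coding for at least 97.0% of listed intronic peaks in every library. Between 3.92% and 5.09% of listed intronic peaks had a midpoint within an exon of RefSeq, an annotation that the rule did not use.

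Enriched intronic peaks lay nearer to exons than listed ones, though by little in mir-486 KO of set 1. The midpoint was within 500 nt of an exon edge for 22.1% of enriched peaks against 15.8% of listed peaks in WT of set 1, and for 13.4% against 12.04% in mir-486 KO of set 1. In set 2 the shares were 17.0% against 9.80% in WT and 18.2% against 9.46% in mir-486 KO. The difference was 5.90 ± 3.18 points (SD, n = 4 libraries, higher in 4 of 4, exact p = 0.125). In mir-486 KO of set 1 the median distance was 4431 nt for enriched and 4492 nt for listed peaks. Some enriched peaks were edges of exonic peaks, as described below, and so lie near exons by position. With only peaks wholly within the intron the difference was 4.68 points. The median distance of listed intronic peaks to the nearest exon edge was between 3427 nt and 5057 nt, so most lay deep within their introns.

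The enriched intronic sites fell into the 2 width classes introduced above, and exonic sites did not to the same degree. Merging gave 188 enriched intronic sites in WT of set 1, 155 in mir-486 KO of set 1, 694 in WT of set 2 and 503 in mir-486 KO of set 2. Of these, 102 (54.3%), 108 (69.7%), 184 (26.5%) and 218 (43.3%) were narrow. The median width of the narrow sites was 25 nt in each library, and that of the wide sites was between 148.5 nt and 192.5 nt. Between 4.92% and 14.1% of enriched CDS sites and between 1.10% and 3.00% of enriched 3′ UTR sites were narrow. The narrow share in introns was higher by 37.5 ± 18.8 points than in CDS and by 46.3 ± 18.6 points than in 3′ UTRs (SD, n = 4 libraries, higher in 4 of 4 for both, exact p = 0.125 for each). Narrow intronic sites also had the higher median log2 fold over input, 4.36, 4.26, 4.26 and 4.14 against 3.78, 3.75, 3.66 and 3.70 for wide sites. The limit of 40 nt was set after the widths were seen. Some narrow sites were edges of exonic peaks: 15, 4, 19 and 31 sites were shorter than 15 nt, and 11, 0, 6 and 12 of these touched an enriched exonic peak. At most 1 of the sites of 15 to 40 nt did so in any library.

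**Figure D2:**
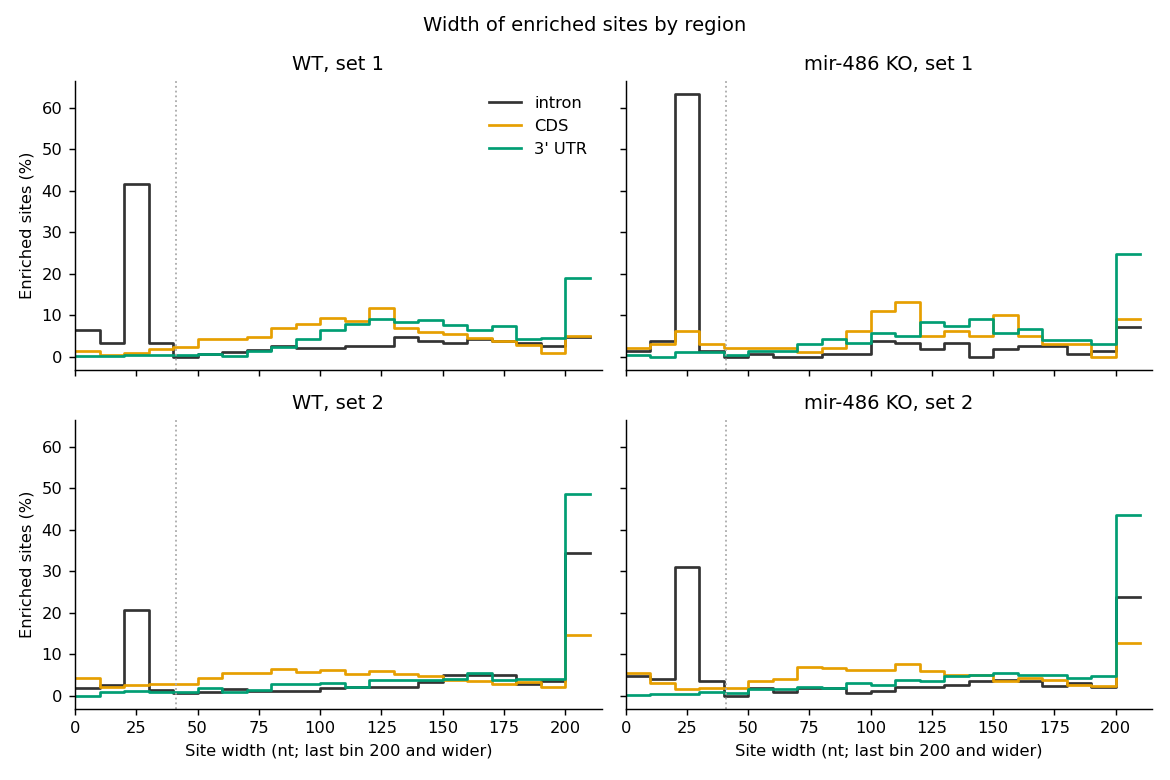
Width of enriched sites in introns (black), CDS (orange) and 3′ UTRs (green), in bins of 10 nt on the horizontal axis with the last bin holding sites of 200 nt and wider. The vertical axis is the percentage of that region's enriched sites in the library, and the dotted line marks the 40 nt limit. Introns show a second group of sites at 20 to 29 nt in each library, which the exonic regions do not show to that height.

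A narrow intronic site often resembled a mature microRNA. Mature microRNAs of RefSeq were aligned to each narrow site extended by 10 nt (match 1, mismatch −1, gap −2). The set used held no miR-486-5p, miR-1a-3p or miR-133a-3p, so these were not scored. A score of at least 14 was reached by 38 of 102 narrow sites in WT of set 1 (37.3%), 42 of 108 in mir-486 KO of set 1 (38.9%), 62 of 184 in WT of set 2 (33.7%) and 58 of 218 in mir-486 KO of set 2 (26.6%). Aligned in the antisense direction, the counts were 6, 7, 10 and 12. The sense share was higher by 28.3 ± 5.10 points (SD, n = 4 libraries, higher in 4 of 4, exact p = 0.125). Narrow CDS sites reached the score in 2.30% to 8.06% of cases. The 7 to 24 narrow 3′ UTR sites of a library did so in 23.5% to 71.4% of cases. Exact shared runs of at least 16 nt were found in 4, 5, 6 and 8 narrow intronic sites in the sense direction, against 0, 0, 1 and 1 in the antisense direction. Wide intronic sites held such runs about as often in both directions, in 2, 1, 8 and 4 sites sense and in 4, 0, 8 and 3 sites antisense.

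The microRNA met most often was miR-133b-3p, with 11, 12, 10 and 11 narrow intronic sites. It was followed by miR-22-3p with 4, 4, 5 and 5 sites, miR-26a-5p with 3, 3, 5 and 4 sites, miR-30c-5p with 2, 2, 3 and 2 sites, and miR-206-3p with 2, 1, 2 and 2 sites. miR-133 and miR-206 are muscle microRNAs, whereas miR-22, miR-26a and miR-30c are found in many tissues. Close relatives such as miR-133a-3p could share these alignments and were not aligned here. Whether such peaks are RNA transcribed from the intron or reads of mature microRNAs placed at a similar intronic sequence was not tested.

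Over the 4 libraries, 54 sites were enriched in introns in each, of which 50 were narrow and 4 wide. Of the 50, 26 reached the alignment score, 8 of them with miR-133b-3p and 4 with miR-22-3p. The 10 with the highest lowest fold were all narrow, and 6 of the 10 were nearest to miR-133b-3p. The intron of Eif2b3, which encodes a subunit of the translation factor eIF2B, held the most enriched one. Its log2 fold over input was 10.54 in WT and 11.03 in mir-486 KO of set 1, and 10.70 and 10.98 in set 2. The site in Tspan8, a tetraspanin gene, followed with 9.37 and 9.89 in set 1 and 9.90 and 9.87 in set 2. The site in Rbms3, an RNA-binding protein gene, lay between 9.09 and 9.29 in all 4 libraries. These 3 sites varied by less than 1 log2 unit among libraries. The values of WT and mir-486 KO overlapped at Tspan8 and Rbms3, and at Eif2b3 both WT values were lower than both mir-486 KO values, by less than 0.5.

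The other 7 had log2 folds between 6.06 and 8.28. Prkaca, which encodes a catalytic subunit of protein kinase A, varied most, with 7.75 in WT and 8.28 in mir-486 KO of set 1 and 6.32 and 7.46 in set 2. Dclk1, a doublecortin-like kinase gene, had 6.66, 6.75, 7.67 and 7.30, in the same order. Grm5, a metabotropic glutamate receptor gene, had 6.97, 6.08, 7.09 and 7.19. The Dclk1 site shared 15 nt and the Grm5 site 16 nt in 1 run with the microRNA named above. Hs6st2, a heparan sulfate sulfotransferase gene, Gm21798 and Specc1 had lowest values of 6.99, 6.12 and 6.06. In the direct lists, which compare WT with mir-486 KO at the same peaks, the 10 sites had log2 folds of WT over KO between −0.45 and −0.01 in set 1 and between −0.50 and 0.26 in set 2. None of the 10 passed the thresholds of those lists.

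**Figure D3:**
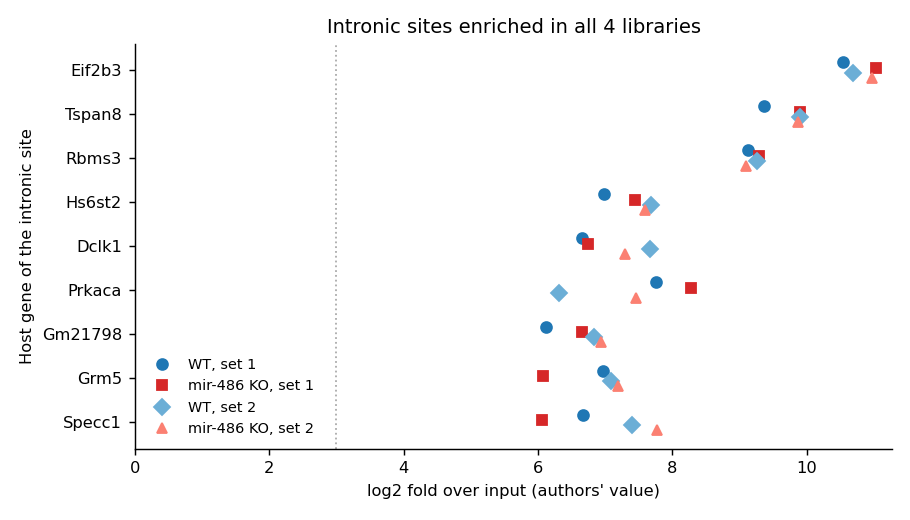
Authors' log2 fold over input (horizontal axis) of 9 intronic sites among the 10 with the highest lowest fold in all 4 libraries, by host gene (vertical axis). Symbols are the 4 libraries and the dotted line is the threshold of 3. All points lie above 6, and Eif2b3, Tspan8 and Rbms3 lie above 9.

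The wide intronic sites carried the miR-1/miR-206 word ACATTCC more often than wide exonic sites. The word was searched in each site extended by 25 nt on both sides, on the strand of the site. It was found in 44 of 86 wide intronic sites in WT of set 1 (51.2%), 18 of 47 in mir-486 KO of set 1 (38.3%), 219 of 510 in WT of set 2 (42.9%) and 110 of 285 in mir-486 KO of set 2 (38.6%). In wide 3′ UTR sites the shares were 20.98%, 24.7%, 20.6% and 21.4%, and in wide CDS sites 10.9%, 23.5%, 16.01% and 17.6%. Introns were higher by 20.8 ± 7.21 points than 3′ UTRs and by 25.7 ± 10.9 points than CDS (SD, n = 4 libraries, higher in 4 of 4 for both, exact p = 0.125 for each). The reverse complement GGAATGT was found in 1.16%, 0%, 2.16% and 1.05% of the wide intronic sites. Here 0 of 47 sites, by a limit of 3 counts, allows a share of up to 6.38%. Site width affects such shares. In fixed windows of 75 nt about the midpoints of enriched peaks wider than 40 nt, the intronic shares were 42.7%, 15.1%, 25.4% and 24.2% and the 3′ UTR shares 15.1%, 15.5%, 8.17% and 10.3%, so that mir-486 KO of set 1 no longer differed in the same direction (difference 14.6 ± 11.5 points, exact p = 0.25).

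The words were more frequent near the centre of the wide sites than farther out. Within 50 nt of the midpoint there were 14.2, 6.38, 8.97 and 8.33 words per 100 sites and 25 nt in the 4 libraries, against 1.89, 0.798, 0.662 and 0.746 at 150 to 250 nt. Wide listed intronic peaks had fewer words, 4.49, 1.41, 1.30 and 1.12 within 50 nt and 0.249 to 0.353 farther out. The WT library of set 1 had the most words in both classes. In mir-486 KO of set 1, with 47 wide enriched sites, no bin of 25 nt held more than 4 words, and the bin at −63 nt held 3. The rates per 100 count words and not sites. Several wide sites held the word more than once, in 6, 1, 19 and 11 intronic sites, up to 8, 2, 17 and 16 words in a single site. In 3′ UTRs and CDS no wide site held more than 2.

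**Figure D4:**
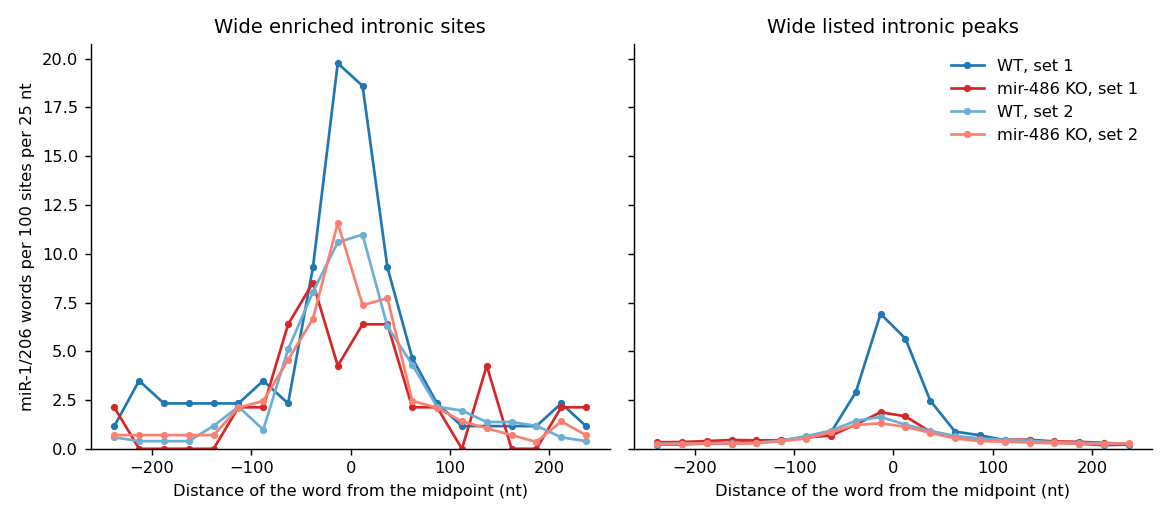
Words complementary to the miR-1/miR-206 seed per 100 sites and 25 nt (vertical axis) by distance from the midpoint in nt (horizontal axis), for wide enriched intronic sites (left) and wide listed intronic peaks (right), in the 4 libraries. The words gather within 50 nt of the midpoint in each library, where enriched sites hold more words per 100 than listed peaks.

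Counted over all enriched intronic peaks, narrow ones included, the miR-1/miR-206 word showed no such difference. It was in 17.7%, 8.05%, 25.5% and 16.9% of enriched intronic peaks, which differed from 3′ UTR peaks by −1.50 ± 9.58 points (n = 4 libraries, exact p = 0.625) and from CDS peaks by 3.87 ± 10.4 points (exact p = 0.5). It was higher than in listed intronic peaks, which held it in 12.8%, 4.60%, 5.47% and 4.65%, by 10.1 ± 7.62 points (4 of 4 libraries, exact p = 0.125). The miR-133 word GGACCAA was rarer in enriched intronic peaks than in enriched 3′ UTR and CDS peaks, with differences of −3.48 ± 1.66 and −7.69 ± 5.76 points (lower in 4 of 4 libraries, exact p = 0.125 for each). The words of let-7 (CTACCTC), miR-29 (TGGTGCT) and miR-30 (TGTTTAC) were also rarer than in 3′ UTR peaks, with differences of −3.01 ± 0.33, −5.25 ± 1.92 and −5.37 ± 1.25 points (lower in 4 of 4 libraries, exact p = 0.125 for each). A narrow peak has less room for a word, and narrow peaks were more frequent in introns. Among wide sites, the miR-133 word was in 5.81%, 8.51%, 13.1% and 18.2% of the intronic ones and differed by 0.90 ± 3.55 points from 3′ UTR sites (exact p = 0.75) and by −4.58 ± 6.50 points from CDS sites (exact p = 0.25). The differences of wide intronic from wide 3′ UTR sites were −1.92 ± 0.88 points for let-7, −5.27 ± 2.22 points for miR-29 and −4.69 ± 2.22 points for miR-30 (lower in 4 of 4 libraries, exact p = 0.125 for each). The miR-486-5p word GTACAGG was in 0.397% of enriched intronic peaks on average, against 0.647% of listed ones (difference −0.25 ± 0.32 points, exact p = 0.375).

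The wide sites with the miR-1/miR-206 word printed above, and one in St7, lay in genes of several kinds. The Mtmr12 site, in the gene of a myotubularin-related protein, held 7 words and had a log2 fold over input of 4.57 in WT of set 1 and 5.98 in WT of set 2. Its highest listed fold in mir-486 KO was 2.38 in set 1 and 3.86 in set 2. The Pard3 site, in a cell polarity gene, held 8 words and had 5.18 and 3.96 in WT and 0.80 and 3.88 in mir-486 KO. In both genes mir-486 KO was lower than WT in set 1, with direct log2 folds of WT over KO of 2.16 and 4.14. In set 2 those folds were 0.77 and −0.06. The Dmd site had 4.03 and 3.80 in WT and 3.23 and 2.84 in mir-486 KO. The Pde4dip site, in the gene of the anchoring protein myomegalin, had 3.96 and 3.78 in WT and 2.41 and 2.73 in mir-486 KO. The sites of St7 (3.63 and 3.998 in WT) and Rora (3.68 and 3.58) had lower values in mir-486 KO, 0.80 and 3.09 for St7 and 1.12 and 2.33 for Rora. Since these sites were chosen as enriched in WT, WT values above mir-486 KO values here are no evidence of a difference between genotypes.

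Intronic peaks recurred unequally between the sets. An enriched intronic peak of set 1 overlapped an enriched peak of the same genotype in set 2 in 65.3% of 271 cases in WT and in 74.3% of 261 in mir-486 KO. In the other direction, from the longer lists of set 2, the shares were 22.2% of 922 and 28.7% of 694. The mean difference from 3′ UTR peaks was 8.65 ± 20.5 points and that from CDS peaks 15.8 ± 24.97 points, higher in 3 of 4 directions for both. The directions of a genotype count overlaps of the same 2 lists, so these are 2 pairs and not 4 independent values, and no p is given. At a log2 fold threshold of 4 the differences were 23.8 ± 20.1 and 27.4 ± 22.1 points, and at a threshold of 1 they turned to −7.40 ± 9.29 and −0.89 ± 24.01 points. Narrow intronic sites recurred in 63.7% (WT, set 1), 81.5% (mir-486 KO, set 1), 38.6% (WT, set 2) and 42.2% (mir-486 KO, set 2) of cases, and wide sites in 50%, 29.8%, 8.63% and 4.91%. Against any listed peak of the other set, at least 88.0% of narrow sites and at least 71.2% of wide sites recurred in every library.

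The host genes were many and the peaks thinly spread. Over the 4 libraries 10480 genes had a listed intronic peak and 739 had an enriched intronic site, 373 of these with a single one summed over libraries. Of the genes with a listed intronic peak, 7.05% thus had an enriched site, a share that does not allow for intron length. The 10 genes with the most listed intronic peaks held 4.88% of all of them. Dmd, which encodes dystrophin and has 2232.5 kb of intron, was first with 233, 604, 1023 and 943 listed peaks. Pde4d, a cyclic AMP phosphodiesterase gene, had 334, 546, 506 and 614, and Rora, a nuclear receptor gene, had 199, 463, 400 and 476. The others were Cdh13, Gse1, Zbtb20, Ptprg, Rbfox1, Ptprm and Sox6, with 1415 down to 841 listed peaks summed over libraries. Per 10 kb of intron these counts were modest, from 1.04 to 4.58 in Dmd, whereas the shorter Gse1 reached 2.78 to 11.7. Ptprg had 976 listed peaks and 0 enriched ones.

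Pde4d and Dmd also had the most enriched intronic sites. Pde4d had 3, 7, 9 and 5 in the 4 libraries. Dmd had 3, 4, 10 and 3. Summed over libraries, 14 of these 20 held the miR-1/miR-206 word and 3 the miR-133 word. A site found in several libraries counts once in each, here and in the counts of a gene's sites below, so the 20 are not all distinct sites. The Dmd site around chrX:83181529-83181718 was enriched in 3 of 4 libraries, with log2 folds of 4.03 and 3.80 in WT and 3.23 in mir-486 KO of set 1. Zbtb20, a transcription factor gene, followed with 11 sites summed over libraries, then Gnaq, a G protein gene, with 9. Ankrd52, Arhgap6, Cdh13 and the muscle gene Mlip had 8 each, and Ghr, the growth hormone receptor gene, had 7. A single wide site in Ghr and one in Ankrd52 were enriched in all 4 libraries, with lowest log2 folds of 3.51 and 4.12.

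Genes of muscle structure were listed in most cases, and their enriched sites often held miR-1/miR-206 words. Of 25 sarcomere genes, 23 had a listed intronic peak and 14 of these, or 60.9%, an enriched one, beside 7.05% over all listed genes. The list was not compared with genes of equal level or intron length, and nothing particular to it is read from this. Neb, the nebulin gene, had 5 enriched sites summed over libraries, 3 with the miR-1/miR-206 word. Its site near chr2:52329636-52329723 on the minus strand had a log2 fold of 4.46 in WT and 3.97 in mir-486 KO of set 1. Summed likewise, Tpm1, a tropomyosin gene, had 2 sites and Mybpc1, a myosin-binding protein gene, had 4, with the word in 2 of each. In each gene the 2 with the word overlapped, found in WT of set 1 and in mir-486 KO of set 2. The enriched sites of Ttn, Myh4, Actn3, Tnnc2 and Tpm2 were all 1 to 10 nt wide, and those of Myom2 were 13 and 17 nt. These genes count among the 14. Some sites shorter than 15 nt were edges of exonic peaks, as given above, and this was not checked gene by gene. All 10 genes of the dystrophin complex list had listed intronic peaks and 5 had enriched ones. The genes of this list averaged 501 kb of intron, against 48.2 kb for the sarcomere list. Utrn, the gene of the dystrophin relative utrophin, had a narrow site enriched in all 4 libraries, with 4.33 and 5.37 in WT and mir-486 KO of set 1 and 5.70 and 6.16 in set 2.

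Of 16 genes of calcium handling and excitation, 15 had listed intronic peaks and 5 (33.3% of the listed) enriched ones, again beside 7.05% over all listed genes. Trdn, which encodes triadin, had 7 enriched sites summed over libraries. Camk2d, a calcium-dependent kinase gene, had the same site enriched in both libraries of set 2. It held the miR-1/miR-206 word and had log2 folds of 4.23 in WT and 3.88 in mir-486 KO. Of 14 splicing regulator genes, 11 were listed and 6 of these (54.5%) had an enriched site. Among them were Celf2 with 6 sites and Rbfox1 with 4, both summed over libraries. The genes of the splicing list averaged 238 kb of intron. Of 12 microRNA machinery genes, 11 were listed and 1 (9.09%) had an enriched site, Xpo5, the exportin of microRNA precursors, with 3.02 in WT of set 2. Of 18 genes that the study treats as miR-486 targets, 13 were listed and 6 (46.2%) had an enriched intronic site. Only the site of Lamp2 (4.03 in WT and 3.33 in mir-486 KO of set 2) and that of Myom1 (3.63 in WT of set 1) were wider than 40 nt. The Lamp2 and Myom1 sites held the miR-1/miR-206 word.

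Markers of other cell types were counted beside those of the labelled tissue. Of 12 muscle fibre markers, 11 had listed intronic peaks (24, 59, 68 and 63 peaks) and 6 had enriched ones. These 6 were 54.5% of the listed markers, beside 7.05% over all listed genes, a share that does not allow for intron length. The enriched sites of Ttn, Myh4, Actn3 and Pvalb among them were at most 10 nt wide. B cell and red blood cell markers had 0 listed intronic peaks in all 4 libraries, in 28.4 kb and 49.97 kb of intron. The 6 endothelial markers had 14, 51, 136 and 156 listed peaks and 0 enriched ones. Fibroblast markers had 4 to 11 listed peaks per library, macrophage markers 9 to 28 and liver markers 0 to 1, none enriched. Adipocyte markers had 2 to 29, with 1 site in Pparg, a fat cell transcription factor gene, enriched in both libraries of set 2 (4.71 and 4.52). Neuron markers had 4 to 13, and the enriched ones among them were all at a site of Gabrg3 described next. In bulk muscle, fewer cells of a type and less RNA per cell cannot be told apart, and the part of other cell types in the intronic peaks was not tested.

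The direct lists set mir-486 KO against WT at the same peaks. At the thresholds of 3, WT over KO was called at 63 of 19756 intronic peaks in set 1 (0.319%) and at 15 of 102098 in set 2 (0.0147%). The shares of all peaks called in those lists were 0.469% and 0.0192%. KO over WT was called at 135 of 47347 intronic peaks in set 1 (0.285%) and at 19 of 110394 in set 2 (0.0172%), against 0.179% and 0.0144% of all peaks. Intronic peaks were thus below the background for WT over KO and above it for KO over WT in set 1. In set 2 the background lay within the 95% Wilson intervals of the intronic shares, 0.0089% to 0.0242% and 0.0110% to 0.0269%. Each list holds 1 library of each genotype, so it has no replicate check. Few called peaks overlapped a peak enriched over input: 12 and 11 in set 1 and 7 and 0 in set 2, for WT over KO and KO over WT.

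Called intronic peaks that recurred in both sets were all higher in WT and lay at 3 narrow sites. They are given here with CCTGTAC in capitals. This is the sense form of positions 2 to 8 of miR-486-5p, that is, the letters of the microRNA itself and not those of a target.
Zyg11a, chr4:108201495-108201519, minus strand: gttCCTGTACtgagctgcacatgtc
Smarcd1, chr15:99707565-99707589, plus strand: gttCCTGTACtgagcgccccaaaag
Gabrg3, chr7:56918176-56918200, minus strand: ccgtctagtactgactgccccgagc

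At the Zyg11a site, in a gene of a ubiquitin ligase adaptor, the log2 fold of WT over KO was 5.91 in set 1 and 6.05 in set 2. At the Gabrg3 site, in a GABA receptor subunit gene, it was 6.11 and 5.33. At the Smarcd1 site, in the gene of a SWI/SNF chromatin remodelling subunit, it was 4.41 and 4.29. Both mir-486 KO libraries had 0 listed peaks at all 3 sites. Over input, the WT libraries had log2 folds of 4.63 and 5.40 at Zyg11a, 4.83 and 4.68 at Gabrg3, and 3.12 and 3.64 at Smarcd1. No intronic peak was called for KO over WT in both sets. The sense form CCTGTAC was in 3 of 57 called WT over KO sites in set 1 and 2 of 13 in set 2, and in 0 of 122 and 0 of 19 called KO over WT sites, which allow shares of up to 2.46% and 15.8%. Among narrow enriched sites it was in 2 of 102 and 2 of 184 in WT and in 0 of 108 and 0 of 218 in mir-486 KO, which allow up to 2.78% and 1.38%. Among wide enriched sites it was in 0 of 86 and 3 of 510 in WT and in 0 of 47 and 1 of 285 in mir-486 KO. The Gabrg3 site lacked the full run CCTGTAC. It held the end of that run, GTAC, followed by TGA as at the Zyg11a and Smarcd1 sites. Mature miR-486-5p was not in the set aligned, so likeness to it beyond the seed was not tested at any of these sites.

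Other calls of set 1 gathered in a few host genes, which were chosen after their values were seen. Each direct list uses peaks called in its first-named library, and the median log2 fold of all its intronic peaks was above 0, at 1.16 (WT over KO) and 1.43 (KO over WT) in set 1 and 0.71 and 0.69 in set 2. Mylk4, a myosin light chain kinase gene, had 20 of its 44 intronic peaks called for KO over WT in set 1, with a median log2 fold of 2.87. In set 2 it had 0 of 18 called, with a median of 0.37. Pde10a, a phosphodiesterase gene, had 11 of 99 called for WT over KO in set 1 (median 1.97) and 0 of 197 in set 2 (median 1.44). At its KO over WT peaks the medians were 1.43 over 22 peaks in set 1 and −0.12 over 139 peaks in set 2. Gm26740, a gene model without a given name, had 12 of 41 called for KO over WT in set 1 (median 2.75), whereas the median was −0.29 with 0 of 44 called in set 2. Rbfox1 and Pde4d had 7 and 8 peaks called for KO over WT in set 1, and Zbtb16, Adcy2 and Fkbp5, the gene of a glucocorticoid receptor co-chaperone, had 3 each called for WT over KO in set 1, with 0 called for these 5 genes in set 2. Peaks of 1 gene share its transcript, so a gene's level and its AGO2 occupancy cannot be told apart in these lists.

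**Figure D5:**
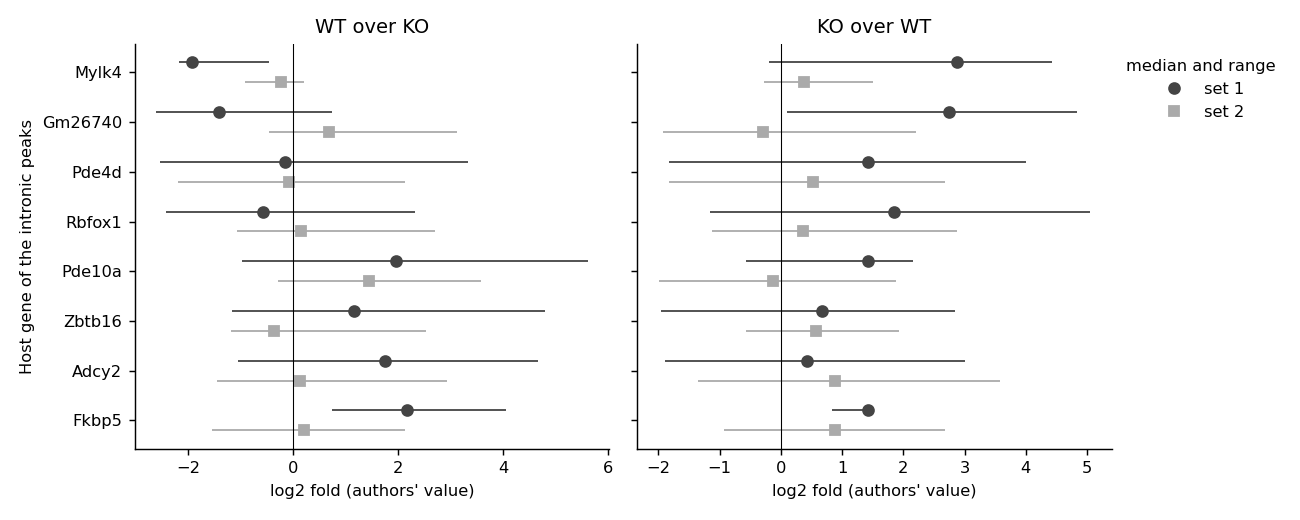
Authors' log2 fold of WT over KO (left) and KO over WT (right) at the listed intronic peaks of 8 host genes. Points are medians and lines run from the lowest to the highest peak, for set 1 (dark circles) and set 2 (light squares). Mylk4 and Gm26740 lie near 2.8 for KO over WT in set 1 and between −0.3 and 0.4 in set 2. Over all intronic peaks the medians are 1.16 and 0.71 for WT over KO and 1.43 and 0.69 for KO over WT, in sets 1 and 2.

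Beyond the recurring sites, the highest calls appeared in 1 set each. The site in Tbc1d1, a Rab GTPase-activating protein gene, had a log2 fold of WT over KO of 5.71 in set 1 and −0.76 in set 2. For KO over WT, Selenot had 5.84 in set 1 and no listed peak in set 2, Pacsin2 had 5.57 and 0.30, and Rbfox1 had 5.05 and 0.05. In set 2 the highest KO over WT values were 4.20 at Setbp1, 4.01 at Gse1, 3.97 at Mcf2l and 3.88 at Ank. Of these, the Gse1 peak was listed in set 1 too, at 2.43, and the other 3 were not.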

How the data were processed

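Chimeric AGO2 eCLIP was analysed from the 4 total immunoprecipitated libraries (2 WT, 2 mir-486 KO) and 4 direct comparisons of them. The libraries enriched for miR-486 were not used. The authors trimmed reads with cutadapt, handled molecular identifiers with UMI-tools, aligned with STAR to GRCm38, and called peaks in each library separately. The authors deposited for each peak a log2 fold between 2 scaled libraries and the −log10 of its p-value. In the direct lists these columns are the authors' comparison of WT with KO, used here only to describe and count peaks.

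Peaks were assigned at their midpoint with GENCODE M21 (CDS, then UTR, noncoding exon and intron), and a host gene was the protein-coding one where several overlapped, then the shortest. The thresholds were a log2 fold of 3 and a −log10 p of 3. Sequences came from GRCm38.p6 and mature microRNAs (1679 names) from RefSeq. Comparisons across regions used a two-sided exact sign-flip permutation test over 4 libraries, for which the smallest p is 0.125 and none could reach 0.05, and p-values measure only the spread between libraries. Intervals are 95% Wilson and cover counting error only. Named sites were the 10 with the highest lowest fold among those enriched in all libraries, intronic peaks called in both direct comparisons, the 5 highest of each direct list, the 10 genes with most listed or enriched peaks, and fixed gene lists. The members and lists were chosen with earlier results of these data known, and the width classes, the local alignment, the tests over width classes and the wide sites printed were chosen after the widths were seen. No sequence from chromosome 18 is printed, and 1 gene that the rule names is not reported here. Overlap, word and alignment functions were tested on simulated data. Python 3.11.15, numpy 2.4.6, pandas 2.3.3, scipy 1.17.1 and Biopython 1.88 were used.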

Additional observations from a re-analysis of the deposited data

Results flagged for a closer look

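The intron share of enriched peaks moved in opposite directions in the 2 sets. It was 17.5 percentage points higher in mir-486 KO than in WT in set 1, and the difference was −4.46 points in set 2. In set 1 the WT library also had the lowest intron share of listed peaks, 21.4%. The difference between the sets was not tested.

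The intronic peaks of Gm26740 had median folds of opposite sign in the 2 sets. Their median log2 fold of WT over KO was −1.43 in set 1 and 0.68 in set 2, and their median log2 fold of KO over WT was 2.75 and −0.29. The medians over all intronic peaks of these lists were 1.16 and 0.71 for WT over KO and 1.43 and 0.69 for KO over WT, so the 0.68 of set 2 lay near the value of its whole list. This difference between the sets was not tested either, and peaks of 1 gene are not replicates.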

How the results depend on the processing

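Of 104 alternatives, 72 kept their result within its spread between libraries (a count within 1.5 times), 22 moved it by more and 10 reversed its direction, and the causes were not tested. No paired analysis was possible because 2 pairs of WT and mir-486 KO libraries allow no fit or test beyond the difference within each set, which for the intron share of listed peaks averaged 9.76 ± 11.8 points (SD over 2 sets). With a log2 fold threshold of 1, the intron share of enriched minus listed peaks was −24.8 points, enriched intronic minus CDS peaks −3.80 and minus 3′ UTR peaks −9.11, recurrence minus CDS −0.89 and minus 3′ UTR −7.40, miR-1/miR-206 words minus 3′ UTR 6.52, and called intronic peaks numbered 339 (higher in WT) and 412 (higher in KO). With a threshold of 4 the shares were −10.1, 0.091 and −0.678 points, the words −3.21 points against CDS and −11.3 against 3′ UTR, and the calls 33 and 40. The reported counts of calls were 78 and 154. They became 39 and 46 at a −log10 p of 5, 232 and 390 at 2, 19 and 11 among peaks also enriched over input, and 15 and 19 in set 2 alone. Across leaving out either set, the word difference ranged from −0.98 to 8.71 points against CDS and from −7.31 to 4.30 points against 3′ UTR. Fixed windows of 75 nt gave 0.00203 points against 3′ UTR. In peaks wider than 40 nt, an alternative added after the data were seen, the word differed by 24.3 points from CDS and 21.1 from 3′ UTR (15.7 and 14.6 in 75-nt windows). Sites of any width sharing an exact run with a microRNA numbered 38 at 16 nt, 144 at 14 nt and 7 at 18 nt, and at 18 nt 0 were narrow, while wide sites held 1, 0, 3 and 3 such runs against 2, 0, 4 and 2 antisense in the 4 libraries. Leaving out peaks in RefSeq exons reversed no result. The −log10 p rises with read depth, which is unknown, so peaks of low depth are called less often at the same fold.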
